A study of Mus musculus with 12 samples.

Results

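The epidermal growth factor (EGF) family was followed in the seminal vesicles of adult mice. It was defined by 10 gene symbols, 7 of ligands (Egf, Areg, Ereg, Hbegf, Tgfa, Btc and Nrg1) and 3 of receptors (Egfr, Erbb2 and Erbb3). A probe set belonged to the family when the platform annotation gave it exactly 1 of these symbols. This found 11 probe sets for 9 of the 10 genes, out of 72688 probe sets and 30063 genes named by 1 symbol. Areg was not analysed here. All 9 genes passed the filter on low values, with a value above the array's median on 12 of 12 arrays in every case, so none passed through 1 group alone.

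The seminal vesicles came from male C57BL/6 mice at week 10, on 12 Affymetrix arrays in 4 groups of 3. The aERKO-DES and aERKO-veh groups lacked estrogen receptor alpha, the product of Esr1, and the WT-DES and WT-veh groups were wild type. Both DES groups had been injected subcutaneously with diethylstilbestrol (DES, an estrogenic drug) in corn oil, 2 µg daily for each pup, on days 1 to 5 of life, and both veh groups corn oil alone. The targeted allele is not named in the sources used here, and the labels leave unsaid whether replicates were different mice. The p-values therefore describe only the scatter among these samples, part of which may be technical.

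EGF-family ligands are made as membrane-anchored precursors, and proteases of the ADAM family release their outer part. Egf, Tgfa, Areg, Ereg, Hbegf and Btc encode ligands of the EGF receptor, and Nrg1 encodes a neuregulin that binds ErbB3. The receptors are tyrosine kinases that pair on ligand binding and signal through Ras, ERK, PI3 kinase and STAT proteins. ErbB2 has no known ligand of its own and serves as a partner, and ErbB3 has a weak kinase and relies on a partner. In the male tract the family is known for its part in epithelial growth and in signalling between stroma and epithelium.

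The median log2 value of an array was 5.95 to 6.14, and pairs of arrays in 1 group correlated at 0.982 to 0.996 across genes. Each WT-DES array stood apart from the arrays of the other groups, with correlations of 0.867 to 0.919. Esr1 averaged 6.90 ± 0.09 in aERKO-DES and 7.66 ± 0.10 in WT-DES arrays, and 6.99 ± 0.11 in aERKO-veh and 7.75 ± 0.08 in WT-veh arrays (log2, SD, n = 3 each), and it was lower in aERKO given vehicle by a log2 difference of -0.76 (adjusted p = 0.00587). The array gives 1 summary of the Esr1 transcript, which may include parts that the targeted allele leaves in place. The 8 secretory genes that mark the seminal vesicle, among them Svs2 and Svs4, were abundant throughout, with a mean log2 level of 13.8 to 14.0 on aERKO-DES, 13.8 to 14.0 on aERKO-veh, 13.5 to 13.7 on WT-DES and 13.8 to 13.9 on WT-veh arrays. With 3 arrays a group, the number of arrays sets the precision of the values.

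In wild-type glands neonatal DES went with less Egf and more Egfr, Ereg and Nrg1 transcript at week 10, and in aERKO glands no member differed detectably between DES and vehicle. Egf fell by 2.00 ± 0.21 on the log2 scale (SE, n = 3 a group), a 3.99-fold lower level, while Egfr rose 2.06-fold, Ereg 1.72-fold and Nrg1 1.38-fold. Erbb3 and Erbb2 fell by less, 1.33-fold and 1.18-fold, and both declines depended on how the arrays were scaled. Tgfa, Hbegf and Btc showed no detected difference. In all, limma called 6 of the 9 genes between WT-DES and WT-veh at an adjusted p below 0.05, 3 higher and 3 lower. Across all 20102 genes tested, 43.9% were called in this comparison (20.7% higher and 23.3% lower), so the share of members called is read against a broad change. The groups did not overlap for these 6 members, nor for 60.9% of all genes. The median difference of the 9 members was 0.02, against -0.05 for all genes. These were bulk samples, so fewer cells of a type and less RNA per cell cannot be told apart.

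**Figure D1:**
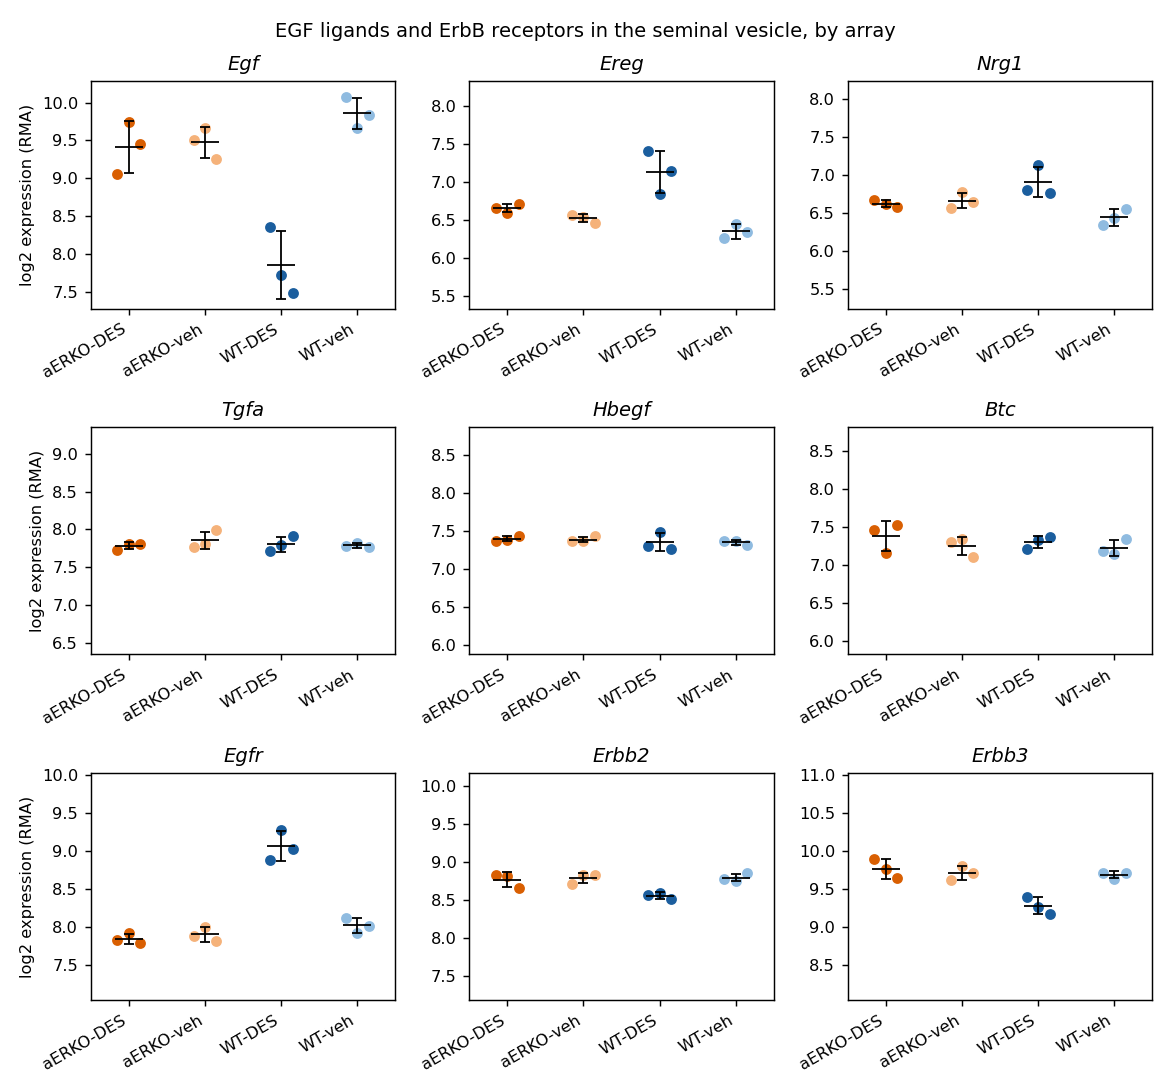
Log2 expression of the 9 measured EGF ligand and ErbB receptor genes (vertical axis, RMA values, each panel spanning the same 3 log2 units) on the 3 arrays of each group. Points are arrays, the long tick is the mean and the bars are 1 SD. The WT-DES arrays lie below all others for Egf and above all others for Egfr and Ereg.

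The regulatory sequences just upstream of Egf and Egfr are shown because these were the ligand and the receptor with the largest differences, in opposite directions. Both are the 250 bases before the annotated start, from RefSeq (GRCm38.p6). The Egf stretch is chr3:129755323-129755572 on the minus strand, upstream of the first of 2 start sites listed, and the Egfr stretch is chr11:16751953-16752202 on the plus strand. Capitals mark the only match found in either to 5 motifs searched on both strands.
Egf: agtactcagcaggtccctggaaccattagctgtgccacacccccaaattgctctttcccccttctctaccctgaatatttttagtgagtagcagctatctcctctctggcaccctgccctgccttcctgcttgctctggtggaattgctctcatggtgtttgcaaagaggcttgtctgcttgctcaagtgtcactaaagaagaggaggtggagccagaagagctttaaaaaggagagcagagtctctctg
Egfr: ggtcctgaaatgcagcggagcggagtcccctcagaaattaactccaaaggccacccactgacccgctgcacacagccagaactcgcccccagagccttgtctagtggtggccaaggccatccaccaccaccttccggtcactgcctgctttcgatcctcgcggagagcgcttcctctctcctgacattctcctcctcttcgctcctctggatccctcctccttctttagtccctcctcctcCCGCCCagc

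The match in the Egfr stretch is an Sp1 box (GGGCGG) on the reverse strand, beginning 9 bases before the start, and 32.7% of the 32851 promoters of this length in the table hold one. The other motifs were the estrogen response element (GGTCA and TGACC with NNN between them), held by 0.0639% of promoters, the AP-1 site (TGANTCA), held by 6.75%, the androgen response half-site (AGAACA), held by 16.1%, and the TATA box (TATAAA), held by 12.4%. None of these letters occurred in either window, which says nothing about binding elsewhere. The Egfr stretch had 60.8% G and C and 11 CpG dinucleotides, and the Egf stretch 50.4% and 0. The 250 bases before the second Egf start site, not printed here, had 52% and 15.

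Egf encodes the founding ligand of the family, made as a very large precursor. It read 9.06, 9.75 and 9.45 on the aERKO-DES arrays and 9.51, 9.67 and 9.26 on the aERKO-veh arrays (log2, probe set TC0300002932.mm.1). It read 8.36, 7.73 and 7.49 on the WT-DES arrays and 10.07, 9.66 and 9.83 on the WT-veh arrays. All 3 WT-DES arrays lay below the 9 others, while the aERKO groups overlapped each other and WT-veh. The difference in WT was -2.00 (95% interval -2.46 to -1.53, adjusted p = 1.36e-05), larger in size than that of 98.2% of genes tested. In aERKO it was -0.06 (-0.52 to 0.41, adjusted p = 0.999). The difference between these responses, aERKO minus WT, was 1.94 ± 0.30 (SE, adjusted p = 0.00064), in the sense of a smaller decline without the receptor.

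The order of Egf levels was WT-veh, aERKO-veh, aERKO-DES and WT-DES, high to low. The neighbours aERKO-veh and WT-veh differed by -0.38 (-0.84 to 0.09, adjusted p = 1), and aERKO-DES and aERKO-veh did not differ beyond their spread. WT-DES stood below aERKO-DES, which was 2.94-fold higher (log2 1.56 ± 0.21, adjusted p = 0.000101). In every setting tried, including each array left out in turn, Egf stayed lower in WT-DES than in WT-veh, by log2 differences of -2.25 to -1.64. Over the 12 arrays, and after each gene was centred on its own mean, the genes whose values lay closest to those of Egf were Glb1l3 (root mean square difference 0.158), the proton pump gene Atp12a (0.235) and the gasdermin gene Gsdma (0.241). In WT these differed between DES and vehicle by -1.86, -1.59 and -1.44. Gsdma is also among the prostate and coagulating gland markers counted below.

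Ereg encodes epiregulin, an EGF receptor ligand that also acts through ErbB4. Its brighter probe set (TC0500000856.mm.1) read 6.66, 6.59 and 6.70 on the aERKO-DES arrays and 6.56, 6.53 and 6.46 on the aERKO-veh arrays. It read 7.40, 6.84 and 7.15 on the WT-DES arrays and 6.25, 6.45 and 6.34 on the WT-veh arrays. All 3 WT-DES arrays were above the 9 others, although they spread more widely than any other group (SD 0.28). The rise in WT was 0.78 ± 0.11 (adjusted p = 0.000154). In aERKO the difference was 0.13 (-0.11 to 0.38), and the 2 responses differed by -0.65 ± 0.16 (aERKO minus WT, adjusted p = 0.0121).

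A second probe set annotated to Ereg (TC0500002734.mm.1) did not show this rise. It averaged 6.28 ± 0.13 in aERKO-DES, 6.32 ± 0.15 in aERKO-veh, 6.22 ± 0.05 in WT-DES and 6.27 ± 0.12 in WT-veh arrays. Its difference in WT was -0.06 ± 0.09 (adjusted p = 0.632, every probe set tested). When both probe sets were averaged the rise in WT was 0.36 and kept its call (adjusted p = 0.00427), whereas the difference between the genotypes' responses was -0.32 and lost its call (adjusted p = 0.072). The Ereg result therefore rests on 1 of its 2 probe sets. The genes closest to the brighter probe set over the 12 arrays were Chodl (0.103), the fibroblast growth factor receptor gene Fgfr2 (0.140) and the chloride channel gene Ano1 (0.155).

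Nrg1 encodes neuregulin 1, the ligand of ErbB3 and ErbB4. It read 6.68, 6.62 and 6.57 on the aERKO-DES arrays and 6.57, 6.77 and 6.65 on the aERKO-veh arrays (TC0800001984.mm.1). It read 6.81, 7.14 and 6.77 on the WT-DES arrays and 6.34, 6.43 and 6.56 on the WT-veh arrays. The WT groups did not overlap, but the lowest WT-DES array was level with the highest aERKO-veh array. The rise in WT was 0.46 ± 0.10 (adjusted p = 0.00243), and the difference in aERKO was -0.04 (-0.25 to 0.17).

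The responses of Nrg1 differed by -0.50 ± 0.14 between genotypes (aERKO minus WT, adjusted p = 0.0209). That call was lost without WT-veh replicate 1 (adjusted p = 0.0548) and without aERKO-veh replicate 2 (adjusted p = 0.0545). A second Nrg1 probe set lay below the background controls of the array in all 4 groups, by 0.25 to 0.63, and was above the array's median on 0 of 12 arrays, so it adds nothing on this gene. Given vehicle, Nrg1 was 0.22 higher in aERKO than in WT (0.01 to 0.43), without overlap, as for 12.2% of genes tested, but it did not pass adjustment (unadjusted p = 0.042, adjusted p = 1). The genes closest to Nrg1 over the 12 arrays were Lpgat1 (0.0548), Adamts3 (0.0564) and Litaf (0.0589).

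Tgfa, Hbegf and Btc encode further EGF receptor ligands: transforming growth factor alpha, heparin-binding EGF and betacellulin. Over the 12 arrays Tgfa stayed between 7.72 and 7.99, Hbegf between 7.26 and 7.48 and Btc between 7.12 and 7.53. DES and vehicle groups overlapped for all 3 genes in both genotypes. In WT the difference was 0.02 for Tgfa (-0.14 to 0.18), 0.00 for Hbegf (-0.14 to 0.15) and 0.08 for Btc (-0.14 to 0.30). These intervals leave out changes of Tgfa or Hbegf beyond 1.13-fold and of Btc beyond 1.23-fold on the deposited scale. In aERKO the differences were -0.07 for Tgfa (-0.23 to 0.09), 0.01 for Hbegf (-0.13 to 0.16) and 0.13 for Btc (-0.09 to 0.35).

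Egfr encodes the EGF receptor itself. It read 7.83, 7.92 and 7.78 on the aERKO-DES arrays and 7.88, 8.0 and 7.81 on the aERKO-veh arrays (TC1100000161.mm.1). It read 8.88, 9.28 and 9.02 on the WT-DES arrays and 8.12, 7.92 and 8.01 on the WT-veh arrays. The WT-DES arrays were clear of the 9 others, which themselves fell within a narrow band. The rise in WT was 1.04 ± 0.10 (95% interval 0.83 to 1.25, adjusted p = 3.89e-06), larger than the difference of 95.1% of genes tested, and 5.12% of genes were called with at least a 2-fold difference. In aERKO the difference was -0.06 (-0.27 to 0.16, adjusted p = 0.999).

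Egfr had the smallest p-value among the members for the difference between responses, -1.10 ± 0.14 (aERKO minus WT, adjusted p = 0.000108). After DES it was 2.33-fold lower in aERKO than in WT (-1.22 ± 0.10, adjusted p = 8.67e-07). The order of levels was WT-DES, WT-veh, aERKO-veh and aERKO-DES, high to low, and among the last 3 neither pair of neighbours differed beyond its spread. Every setting tried kept the rise in WT, at 0.92 to 1.40. The genes closest to Egfr over the 12 arrays were Fermt1 (0.0459), which encodes an integrin-binding protein of epithelia, Rin2 (0.0663) and the ephrin gene Efnb2 (0.0668).

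Erbb3 encodes the neuregulin receptor with the weak kinase. It read 9.89, 9.75 and 9.64 on the aERKO-DES arrays and 9.62, 9.80 and 9.71 on the aERKO-veh arrays (TC1000003153.mm.1). It read 9.39, 9.26 and 9.17 on the WT-DES arrays and 9.71, 9.63 and 9.71 on the WT-veh arrays. The WT-DES arrays were the lowest 3 of the 12. Erbb3 fell in WT by 0.41 ± 0.08 (adjusted p = 0.00172), the difference in aERKO was 0.05 (-0.13 to 0.23), and the responses differed by 0.46 ± 0.12 (aERKO minus WT, adjusted p = 0.0135). With the hybridization controls that last difference was 0.24 and lost its call (adjusted p = 0.539). The closest genes over the 12 arrays were Rab11fip1 (0.0517), Adcy6 (0.0528) and Sva (0.0579).

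Erbb2 encodes the receptor without a ligand of its own. It read 8.83, 8.81 and 8.65 on the aERKO-DES arrays and 8.71, 8.83 and 8.83 on the aERKO-veh arrays (TC1100001568.mm.1). It read 8.56, 8.59 and 8.51 on the WT-DES arrays and 8.78, 8.75 and 8.85 on the WT-veh arrays. The 3 WT-DES values were again the lowest, by a small margin. Erbb2 fell in WT by 0.24 ± 0.07 (adjusted p = 0.0141), a call lost without WT-veh replicate 3 (adjusted p = 0.0599). The difference in aERKO was -0.03 (-0.17 to 0.12), and the 2 responses differed by 0.21 ± 0.10 without passing (adjusted p = 0.122). It did pass with array weights (0.29, adjusted p = 0.00451), quantile normalization (0.35, 0.00332), arrays at a common median (0.29, 0.0339) and without aERKO-DES replicate 3 (0.27, 0.0468). The closest genes were Urgcp (0.0217), Dnmbp (0.0319) and Dnajc16 (0.0334).

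**Figure D2:**
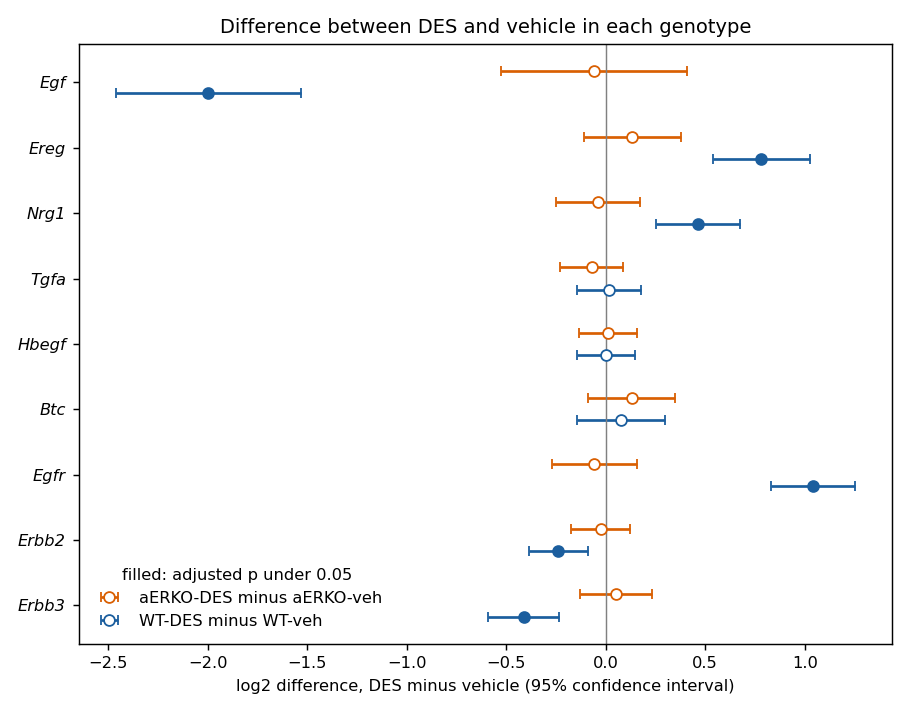
Log2 difference between DES and vehicle (horizontal axis, with 95% confidence intervals from limma) for the 9 genes in aERKO (orange) and WT (blue), 3 arrays a group. Filled points passed an adjusted p of 0.05: 6 in WT and 0 in aERKO, where every interval includes 0.

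How the arrays were put on 1 scale mattered for the smaller differences. The hybridization controls, which are added to each sample, differed by -0.36 between WT-DES and WT-veh arrays, and the background control probe sets by -0.43. When the arrays were shifted to the same level of these controls the median difference of all genes in WT moved to 0.31. On that scale 41.5% of genes were higher and 1.74% lower. Egf stayed lower (-1.64, adjusted p = 4.44e-09), and Egfr (1.40), Ereg (1.14) and Nrg1 (0.82) stayed higher. Erbb3 differed by -0.05 (adjusted p = 0.781) and Erbb2 by 0.12 (adjusted p = 0.53). Btc gained a call, at 0.43 (adjusted p = 0.0287), while Tgfa at 0.37 (adjusted p = 0.0531) and Hbegf at 0.36 (adjusted p = 0.0674) did not pass. This scaling adds 1 constant to each array, so it moves the difference of every gene in WT by the same amount. The constant rests on 4 control probe sets, and its scatter enters every gene alike. The p-values on this scale therefore do not measure the scatter of each gene alone. With every array set to 1 common median, 16.9% of genes were higher and 35.4% lower, and all 6 calls of the deposited scale were kept.

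**Figure D3:**
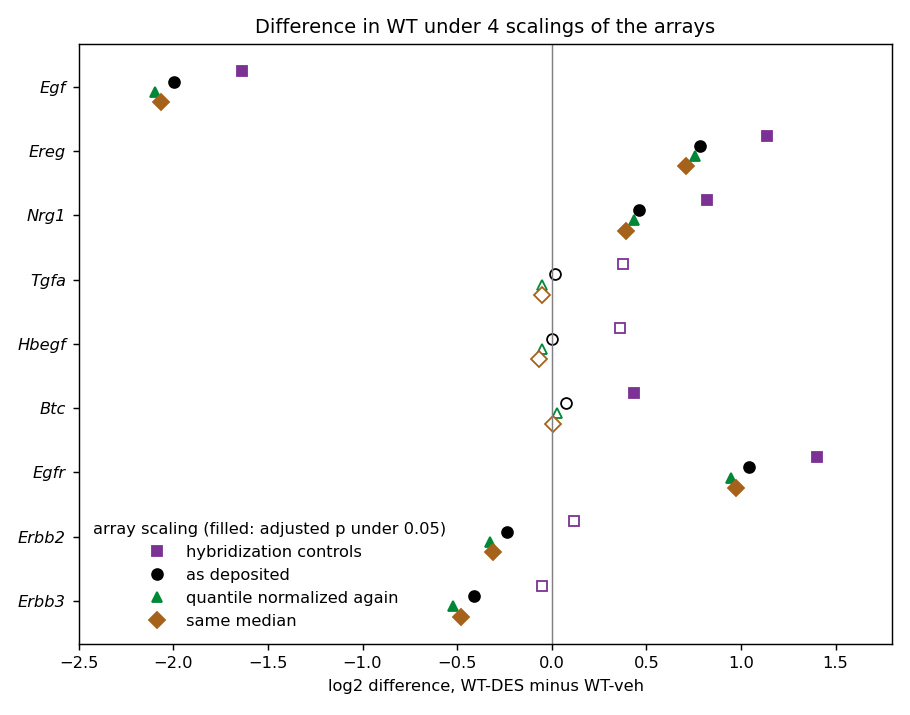
Log2 difference between WT-DES and WT-veh (horizontal axis) for the 9 genes under 4 scalings of the arrays, filled where the adjusted p was below 0.05. Egf, Ereg, Nrg1 and Egfr keep their side of 0 and their call under all 4, whereas Erbb2 and Erbb3 lose theirs with the hybridization controls.

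No member was called between aERKO-DES and aERKO-veh, where limma called 0% of all genes and 1.31% had an unadjusted p below 0.05. The members' differences ran from -0.07 (Tgfa) to 0.13 (Ereg). These groups overlapped for every member except Ereg, and did not overlap for 6.11% of all genes. The interval was widest for Egf (-0.52 to 0.41), which leaves room for a level up to 1.44-fold lower or 1.33-fold higher in aERKO-DES than in aERKO-veh. The difference between the genotypes' responses was called for 5 of the 9 members, Egf, Ereg, Nrg1, Egfr and Erbb3, against 23.3% of all genes (9.16% higher and 14.1% lower, or 19.1% and 12% with arrays at a common median). This comparison shares its arrays with the separate ones in WT and aERKO.

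After DES the genotypes differed in 6 members, against 52.1% of all genes (27.5% higher and 24.6% lower, or 2.75% and 29% with the hybridization controls). This comparison uses the same 3 WT-DES arrays as that of DES with vehicle in WT. Egf, Erbb3 and Erbb2 were higher in aERKO-DES than in WT-DES, by 1.56, 0.49 and 0.21, and Egfr, Ereg and Nrg1 were lower, by log2 differences of -1.22, -0.48 and -0.28. The smallest of these were fragile. The Nrg1 call (adjusted p = 0.0301) was lost without WT-DES replicate 2 (adjusted p = 0.126, difference -0.17), aERKO-DES replicate 2 (0.0665) or aERKO-DES replicate 3 (0.083). It was also lost with arrays at a common median (-0.19, adjusted p = 0.0908) and with only the compared groups fitted (adjusted p = 0.0707). The Erbb2 call (adjusted p = 0.022) was lost without WT-DES replicate 3 (adjusted p = 0.0564), aERKO-DES replicate 1 (0.072) or aERKO-DES replicate 2 (0.075). It was also lost with only the compared groups fitted (adjusted p = 0.0835), and with the hybridization controls its difference was -0.01. With those controls Erbb3 also lost its call (0.27, adjusted p = 0.173). With both probe sets averaged, Ereg lost its call as well (-0.21, adjusted p = 0.0545).

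Given vehicle, no member was called between aERKO and WT, where 0.0249% of all genes were called. The differences ran from -0.38 (Egf) to 0.22 (Nrg1), and for the other 7 members from -0.12 to 0.17. The groups did not overlap for Nrg1 and Ereg, nor for 12.2% of all genes.

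Ereg lies in a row of family genes. In RefSeq the protein-coding genes Epgn, Ereg, Areg and Btc follow one another on chromosome 5, between Mthfd2l and Parm1. Of this row Ereg rose in WT on its brighter probe set, and Btc did not pass on the deposited scale. Epgn, the gene of epigen, averaged 4.99 ± 0.11 in WT-DES and 5.04 ± 0.03 in WT-veh arrays, which is 0.12 above and 0.27 below the background controls of these groups, and it was not tested.

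Other genes of the pathway were counted in 4 lists, to be read against 20.7% of all genes higher and 23.3% lower in WT, or 41.5% and 1.74% with the hybridization controls. The lists were chosen with earlier results of these data known, and the difference between a list and all genes was not tested. Of the ligand shedding genes 5 of 10 tested rose in WT and none fell, with a median of 0.31 against -0.05 for all genes, and with the hybridization controls 9 were higher and 0 lower. Adam17, the protease that releases many EGF receptor ligands, averaged 9.11 ± 0.21 in WT-DES and 7.80 ± 0.06 in WT-veh arrays, a rise of 1.31 (adjusted p = 3.12e-07). It averaged 7.80 ± 0.05 in aERKO-DES and 7.79 ± 0.09 in aERKO-veh arrays. Adam8, a protease found on leukocytes, rose by 1.34, Adam10, the protease that releases Egf and Btc, by 0.60, and Adam19 by 0.53. The remaining one, Rhbdf2, which carries ADAM17 to the cell surface, rose by 0.42; it was named after its value was seen. All 5 responses differed between genotypes (aERKO minus WT, -1.31 to -0.39).

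Of the genes that relay the receptor signal, 6 of 29 rose and 6 fell in WT, with a median of -0.01, and with the hybridization controls 12 were higher and 0 lower. Both splits are near those of all genes. Vav3 rose by 1.15, the transcription factor gene Stat3 by 0.96, Nras by 0.54 and the phospholipase gene Plcg1 by 0.48. Vav3 averaged 6.62 ± 0.05 in aERKO-DES, 6.62 ± 0.10 in aERKO-veh, 7.86 ± 0.19 in WT-DES and 6.71 ± 0.04 in WT-veh arrays. Map2k2, a kinase that activates ERK, fell by 0.47 on the deposited scale, Stat5b fell by 0.46, Stat5a fell by 0.33 and Braf fell by 0.32. None of these 4 had a call with the hybridization controls, on which Stat5a and Braf differed by 0.02 and 0.04.

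Of the genes that end or dampen the signal, 12 of 25 rose and 2 fell in WT, with a median of 0.17, against 19 and 0 with the hybridization controls. Dusp6, whose product removes phosphate from ERK, averaged 8.77 ± 0.21 in WT-DES and 7.77 ± 0.08 in WT-veh arrays, a rise of 1.00 (adjusted p = 6.02e-06). Cbl, the ubiquitin ligase that tags activated EGF receptor, rose by 0.75 and the phosphatase genes Ptpn1 and Ptpn2 by 0.71 and 0.60. Dusp4 fell by 0.36 and Dusp5 fell by 0.19. On the scale of the hybridization controls Dusp4 differed by -0.00 and Dusp5 by 0.16, both without a call.

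Of the genes that ERK signalling is known to induce, 7 of 17 rose and 3 fell in WT, with a median of 0.10, against 10 and 1 with the hybridization controls. The stress response gene Ier3 rose by 0.92, the survival gene Mcl1 by 0.88, Fos by 0.88 and Egr1 by 0.46. Plau, the gene of the urokinase-type plasminogen activator, averaged 9.06 ± 0.29 in WT-DES and 10.15 ± 0.26 in WT-veh arrays, and it fell by 1.09 (adjusted p = 0.000103). It was the gene of this list that stayed lower with the hybridization controls (-0.73, adjusted p = 0.000327). Etv4 fell by 0.37 and Myc fell by 0.28, and with those controls their differences were -0.01 and 0.08 without a call. In aERKO no gene of the 4 lists was called, and list medians lay between -0.05 and 0.03. For the difference between responses (aERKO minus WT) the calls were 0 higher and 5 lower among shedding genes, 2 and 6 among relay genes, 1 and 11 among dampening genes, and 1 and 6 among ERK-induced genes, against 9.16% and 14.1% of all genes. With quantile normalization they were 0 and 5 among shedding genes, 7 and 6 among relay genes, 3 and 9 among dampening genes, and 3 and 3 among ERK-induced genes.

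**Figure D4:**
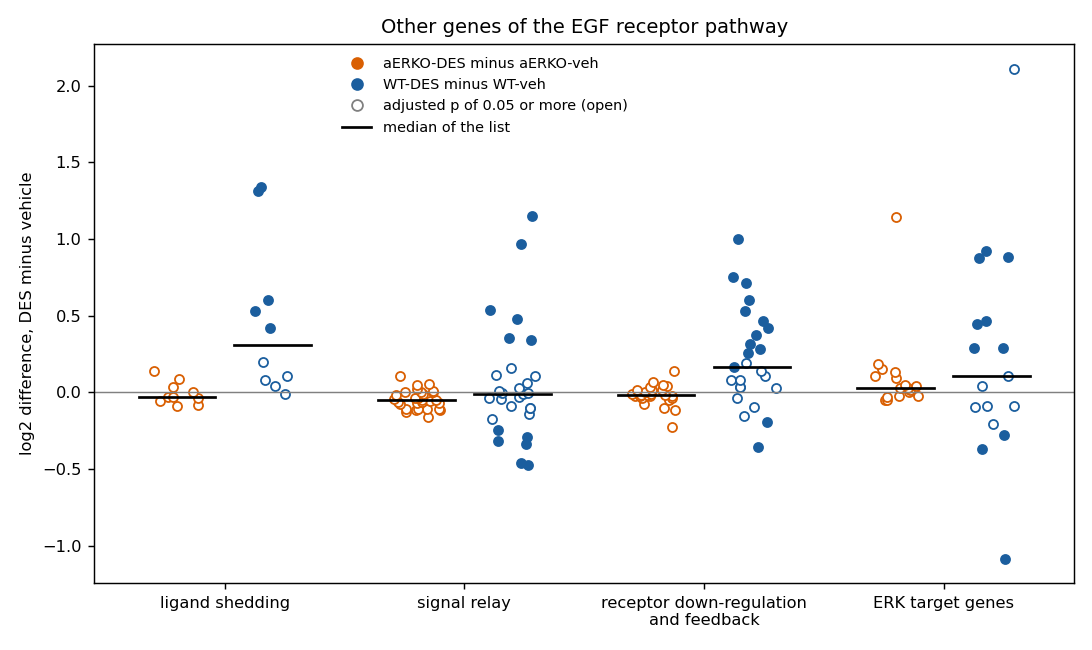
Log2 difference between DES and vehicle (vertical axis) for the tested genes of 4 pathway lists, in aERKO (orange) and WT (blue). Each point is a gene, filled where the adjusted p was below 0.05, and the bar is the median of the list. In WT filled points lie on both sides of 0 except among ligand shedding genes, and in aERKO none is filled.

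Markers of several cell types moved with the WT response, and their part in the results above was not tested. The counts are to be read against 20.7% of all genes higher and 23.3% lower in WT. With the hybridization controls those shares were 41.5% and 1.74%. The marker lists too were chosen with earlier results of these data known. Of the macrophage and dendritic cell markers 13 of 13 rose (mean log2 level 7.42 to 7.67 on aERKO-DES, 7.40 to 7.45 on aERKO-veh, 9.53 to 9.98 on WT-DES and 7.41 to 7.66 on WT-veh arrays), and of the neutrophil markers 9 of 10 (5.69 to 5.90 on aERKO-DES, 5.59 to 5.86 on aERKO-veh, 8.28 to 8.83 on WT-DES and 5.71 to 5.76 on WT-veh arrays). S100a8, Retnlg and Ngp lay at or below the background controls in WT-veh. So did Dsc3 of the basal and squamous list and Ms4a1 and Jchain of the T and B cell list. Apart from Ngp, these genes did so in both aERKO groups as well. They passed the filter on low values through WT-DES, which fixed the direction of their calls. The counts of rises include them, and their rise is no separate result. The filter used the array's median, which lies above the background controls, so other dim markers may have passed only through WT-DES too. These were not counted. The neutrophil list averaged 5.59 to 5.90 outside WT-DES, below the array medians of 5.95 to 6.14. The filter thus fixed part of the neutrophil and of the T and B cell counts. Of the fibroblast markers 8 of 8 rose (8.41 to 8.53 on aERKO-DES, 8.30 to 8.45 on aERKO-veh, 10.08 to 10.54 on WT-DES and 8.43 to 8.72 on WT-veh arrays), as did 12 of 12 basal and squamous epithelial markers (7.20 to 7.41 on aERKO-DES, 7.24 to 7.33 on aERKO-veh, 8.52 to 8.80 on WT-DES and 7.28 to 7.33 on WT-veh arrays) and 6 of 6 endothelial ones. Luminal epithelial markers were mixed, with 7 of 12 higher and 3 lower (9.42 to 9.45 on aERKO-DES, 9.47 to 9.61 on aERKO-veh, 9.72 to 9.86 on WT-DES and 9.49 to 9.53 on WT-veh arrays), against 8 and 0 with the hybridization controls.

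T and B cell markers rose in 6 of 7 cases, mast cell and innate lymphoid markers in 2 of 6 with 1 lower, and nerve and Schwann cell markers in 1 of 4. The mast cell and nerve counts are near the shares of all genes on the deposited scale. With the hybridization controls they were 5 of 6 and 2 of 4 higher. Smooth muscle markers fell in 6 of 8 cases, seminal vesicle secretory genes in 5 of 8 and prostate and coagulating gland genes in 3 of 4. With the hybridization controls 0, 0 and 1 of these stayed lower. The prostate and coagulating gland genes tested were Gsdma (-1.44), Tgm4 (-0.70), Pbsn (-0.60) and, without a call, Defb50 (1.06). That list had a mean log2 level of 10.11 to 10.72 on aERKO-DES and 10.38 to 10.75 on aERKO-veh arrays. It was 10.26 to 10.88 on WT-DES and 10.57 to 11.45 on WT-veh arrays. Whether tissue of these glands was part of the samples was not tested. In aERKO no marker of any of these lists was called between DES and vehicle.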

How the data were processed

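Seminal vesicle RNA from 12 samples, 3 in each of 4 groups named in the sample titles, was measured on 1 array each. The authors deposited 1 log2 value for each probe set and array. Per the submitters' processing notes, these come from RMA as run in Affymetrix Expression Console. RMA corrects background, equalizes arrays and summarizes probes, so a broad change can push other genes the opposite way. No version or genome build is stated in the sources used here.

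Of 72688 probe sets 30604 had exactly 1 symbol, and 1135 of these symbols were updated through the RefSeq gene table. A gene with several probe sets was represented by the one with the highest mean, and 20102 genes with a value above the array's median on at least 3 of 12 arrays were tested. Log2 values were fitted with limma 3.58.1 in R 4.3.3 (lmFit and eBayes, a mean per group, all 12 arrays, two-sided) for 5 comparisons, with Benjamini-Hochberg adjustment over all genes tested and a threshold of 0.05. With 3 arrays against 3, the smallest p an exact permutation test allows is 0.1, so none was run. Intervals are 95% intervals from limma. The code was tested on simulated data.

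The members and lists were chosen with earlier results of these data known. Named genes are the members, up to 4 called genes in each direction from each pathway list, and the 3 genes closest to each called member, leaving out provisional names, small RNAs and receptor segments. Epgn was added because it neighbours Ereg. Alternatives were the filter, probe set rule, moderation, samples, weights, scaling, replicate block and each array left out.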

Additional observations from a re-analysis of the deposited data

Results flagged for a closer look

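The response to DES differed between genotypes for 5 of the 9 members by limma's test of the difference itself, given as aERKO minus WT on the log2 scale, with 3 arrays a group. For Egf it was 1.94 (response -0.06 in aERKO and -2.00 in WT), for Egfr -1.10 (-0.06 in aERKO and 1.04 in WT) and for Ereg -0.65 (0.13 in aERKO and 0.78 in WT). For Nrg1 it was -0.50 (-0.04 in aERKO and 0.46 in WT), and for Erbb3 0.46 (0.05 in aERKO and -0.41 in WT). The Erbb3 difference was 0.24 without a call with the hybridization controls (adjusted p = 0.539). The same kind of difference was called for 23.3% of all genes tested.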

How the results depend on the processing

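Egf and Egfr kept their direction and call in every setting in WT, in the difference between responses and between genotypes after DES. Members called between WT-DES and WT-veh numbered 4 to 6 over all settings, against 6. For the difference between responses the count was 3 instead of 5 with the stricter filter, which removed Ereg and Nrg1, and also 3 with all probe sets averaged, where Nrg1 fell under the filter. With the hybridization controls, which shift all genes of an array alike, the sign of Erbb2 changed in WT (0.12) and between genotypes after DES (-0.0097), in both cases without a call (adjusted p = 0.53 and 0.971). A change of sign where neither setting made a call was not counted as a reversal. Genes called for the difference between responses numbered 8164 with array weights and 2939 with the hybridization controls, against 4679. After DES, genotype calls were 6771 with the stricter filter, which tests fewer genes, and 6378 with the hybridization controls, against 10483. Given vehicle they were 80 with array weights, 14 with the hybridization controls and 8 with only those 2 groups, against 5. The cause of these shifts was not tested. With each array left out in turn, calls numbered 0 to 6 given vehicle and 0 to 1 between aERKO-DES and aERKO-veh. Replicate numbers were not used to pair the arrays in the main fit. Deviations of same-numbered arrays correlated at -0.36 to 0.52, above 0.1 for 6 of 18 pairs. All 6 were replicates 2 and 3 of aERKO-DES, aERKO-veh and WT-DES. Whether same-numbered arrays shared a batch was not tested. With the replicate block 6 members were called in WT and 9988 genes in all, against 8829 without it, and it changed no call of a member. Signal over background limits the dimmest members: Ereg averaged 1.04 to 2.26 and Nrg1 1.14 to 2.03 log2 units above the background controls in the 4 groups.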

Other observations

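Other family members were on the arrays. Nrg2, which encodes a further neuregulin, averaged 7.72 ± 0.03 in aERKO-DES, 7.72 ± 0.02 in aERKO-veh, 7.61 ± 0.03 in WT-DES and 7.68 ± 0.01 in WT-veh arrays (log2, SD, n = 3 each). Its difference in WT was -0.07 by limma (adjusted p = 0.32), and it was called lower with arrays at a common median (-0.14, adjusted p = 0.0475) and with quantile normalization (-0.13, adjusted p = 0.0282). Erbb4, which encodes the remaining receptor, and Nrg3 were above the array's median on 0 of 12 arrays and were not tested. Erbb4 group means lay between -0.12 and 0.17 relative to the background controls, and Nrg3 group means between 0.00 and 0.27. Nrg4, another neuregulin, was above the median on 1 array, with group means 0.52 to 1.07 above the background controls, and was not tested either.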
